A study of Homo sapiens with 20 samples.

Results

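The HLA class II locus was taken as the 750 kb of hg38 chromosome 6 from the first to the last of 6 genes, HLA-DRA, HLA-DRB1, HLA-DQA1, HLA-DQB1, HLA-DPA1 and HLA-DPB1 (GENCODE 44), with 50 kb added on either side (chr6:32389878-33139696). The 6 genes are its members. The cohesin peaks whose centres lie in this window number 73 of 11262 peaks on chromosome 6 and of 188806 peaks in all 6 lists. Cohesin was profiled by ChIP-seq, in which DNA bound to a protein is recovered with an antibody and sequenced, for the subunits RAD21, SA1 and SA2. The groups were hTERT CHM13 cells, a line from a complete hydatidiform mole, with 3 libraries per subunit, and hTERT RPE-1 cells, a line from retinal pigment epithelium, with 2 libraries per subunit. Both lines carry hTERT, the telomerase that immortalises them. Total chromatin served as input, Drosophila chromatin was added to the CHM13 samples, and no drug separates the groups. The lines are of different origin, so their genotypes differ.

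The deposited lists merge the replicates of a line and subunit, so each list is 1 set of positions with no peak height and no replicate error. The intervals given below are therefore counting intervals. CHM13 and RPE-1 cells differed in the RAD21 antibody, the sonication, the number of libraries and the added Drosophila chromatin. Most CHM13 libraries were also sequenced more deeply. A difference between the lists of the lines cannot be told apart from these. The SA1 and SA2 antibodies were the same in both lines. Between 6416 and 73881 peaks stood in a list, with fewer peaks in RPE-1 than in CHM13 cells for every subunit.

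HLA class II molecules are pairs of an alpha and a beta chain that show peptides taken up from outside the cell to helper T cells. HLA-DRA and HLA-DRB1 encode the chains of HLA-DR, HLA-DQA1 and HLA-DQB1 those of HLA-DQ, and HLA-DPA1 and HLA-DPB1 those of HLA-DP. Their expression is driven by the coactivator CIITA, on continuously in antigen-presenting cells and after interferon gamma in many other cells. Cohesin is a ring of SMC1, SMC3 and RAD21 that carries either SA1 or SA2, forms chromatin loops, and often halts where the insulator protein CTCF sits on DNA. The beta chain genes and HLA-DQA1 are among the most variable human genes, and the hg38 alleles may differ from those of both lines.

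None of the 6 genes carried a cohesin peak, whereas 47.4% of protein-coding genes of like length did. The 6 genes are neighbours, so these zeros are not separate observations. The peaks of the locus joined, where they overlapped by at least 1 bp, into 20 sites, which stood on either side of the DR, DQ and DP genes but not in them. Every site held a CHM13 RAD21 peak, as did most joined sites on the rest of chromosome 6. No list had a peak between HLA-DRB1 and HLA-DQA1, and 48.1% of stretches of that length elsewhere on chromosome 6 had none either. Of the 20 sites, 13 were also listed in RPE-1 cells (65.0%), beside 20.6% of sites on the rest of chromosome 6.

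**Figure D1:**
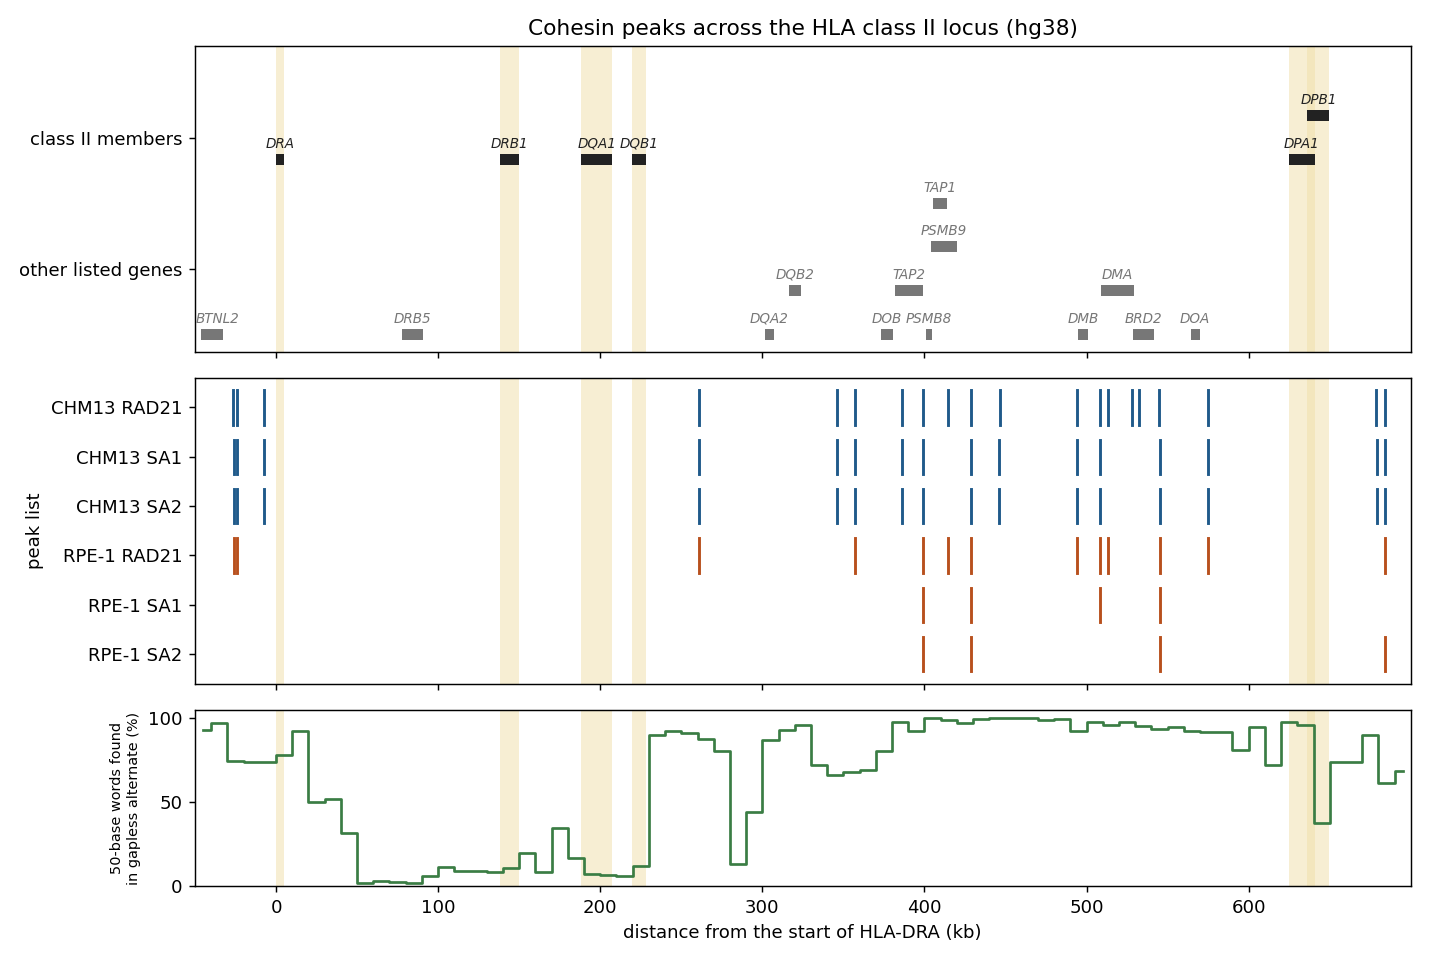
Map of the class II locus by distance from the start of HLA-DRA (kb), with genes above, the centre of each peak in the 6 lists in the middle (1 tick per peak) and, below, the share of 50-base words in 10 kb bins found in the gapless alternate MHC sequence of hg38. Shading marks the 6 members, and no tick falls within it. The 268 kb without a tick from upstream of HLA-DRA to beyond HLA-DQB1 includes the stretch where the fewest words are shared.

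The CTCF consensus was searched at the sites because cohesin peaks often coincide with CTCF. A match to its 14 letters on either strand with at most 1 mismatch was found at 10 of 20 sites (50.0%, Wilson 95% interval 29.9 to 70.1). On the rest of chromosome 6, 19.0% of 4569 joined sites held one, as did 1.16% of consecutive windows of 765 bp, the median site width. With no mismatch allowed the share was 10.0% (2.79 to 30.1) beside 4.07% elsewhere, and the interval then included the share elsewhere. The sequences below show the match in capitals with 33 bases on each side, 5′ to 3′ on the strand of the match. The first pair lies upstream of HLA-DRA, the next pair was listed for all subunits in both lines, the fifth is a RAD21 site without SA1 or SA2 at HLA-DMA, and the last pair stands on either side of the DP genes.
upstream of HLA-DRA, chr6:32413590-32413669, plus strand: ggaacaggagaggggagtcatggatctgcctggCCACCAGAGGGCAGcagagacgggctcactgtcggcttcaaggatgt
upstream of HLA-DRA, chr6:32415586-32415665, plus strand: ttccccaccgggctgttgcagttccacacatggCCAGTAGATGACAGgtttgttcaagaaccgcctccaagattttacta
beyond PSMB9, chr6:32868337-32868416, minus strand: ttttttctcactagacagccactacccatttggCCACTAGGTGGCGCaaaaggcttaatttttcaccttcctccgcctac
beyond BRD2, chr6:32984948-32985027, minus strand: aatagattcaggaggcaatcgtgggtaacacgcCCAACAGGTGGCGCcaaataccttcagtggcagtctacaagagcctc
at HLA-DMA, chr6:32953355-32953434, minus strand: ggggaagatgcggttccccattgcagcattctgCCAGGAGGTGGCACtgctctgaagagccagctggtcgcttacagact
between HLA-DOA and HLA-DPA1, chr6:33014906-33014985, plus strand: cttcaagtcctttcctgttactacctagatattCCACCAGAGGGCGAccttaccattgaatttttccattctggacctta
beyond HLA-DPB1, chr6:33123857-33123936, plus strand: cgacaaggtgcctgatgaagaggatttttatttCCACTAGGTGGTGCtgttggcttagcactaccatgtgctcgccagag

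Exact matches were found at the first site upstream of HLA-DRA and at the site beyond PSMB9, and the other 5 sequences have 1 mismatch. The centre of the match lay 1 to 23 bp from the centre of the CHM13 RAD21 peak at 8 of the 10 sites, 167 bp from it beyond BRD2 and 441 bp from it in the widest peak of the locus. A match is a description of letters and does not show that CTCF was bound, which was not measured in the lists used.

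The question put to the stretch between HLA-DRB1 and HLA-DQA1 was whether any subunit was listed there. This stretch (chr6:32589849-32628178, 38.3 kb) lies between the beta chain gene of HLA-DR and the alpha chain gene of HLA-DQ, and an insulator element bound by CTCF has been described in it in B cells. It held 0 RAD21, 0 SA1 and 0 SA2 peaks in CHM13 cells and 0 of each in RPE-1 cells. A count of 0 in a list allows up to 3 peaks, or 78.3 per Mb. At the density of the rest of chromosome 6, a stretch of this length held 0.996 CHM13 RAD21 peaks and 0.175 RPE-1 RAD21 peaks on average. Of 4409 consecutive stretches of this length elsewhere on chromosome 6, 48.1% had no peak in any list, so that the lack of a peak over 38.3 kb was common.

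One match to the CTCF consensus in the hg38 sequence between HLA-DRB1 and HLA-DQA1, with 1 mismatch, is shown because no list has a peak at it.
nearer HLA-DQA1, chr6:32622593-32622672, plus strand: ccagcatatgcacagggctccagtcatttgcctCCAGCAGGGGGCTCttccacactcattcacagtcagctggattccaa

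A match without a peak was the more common case: on the whole of chromosome 6, 33% of 2700 matches lay under a CHM13 RAD21 peak, and in the locus 10 of 23 did.

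The interval without a peak was wider than this stretch. In CHM13 cells no RAD21 peak was listed over 267.7 kb, from the site upstream of HLA-DRA to the site beyond HLA-DQB1, an interval that holds HLA-DRA, HLA-DRB5, HLA-DRB1, HLA-DQA1 and HLA-DQB1. The SA1 and SA2 lists of CHM13 cells were empty over the same 267.7 kb. Among 4411 intervals between CHM13 RAD21 peaks on chromosome 6 with no undetermined base, 73 (1.65%) were at least as long, and the median interval was 14.6 kb. Intervals of at least this length made up 22% of chromosome 6. For RPE-1 RAD21 the interval was 284.6 kb and 21.1% of 781 intervals were at least as long, with a median interval of 94.0 kb, and these held 61.5% of the bases.

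A 103.0 kb interval without a CHM13 RAD21 peak held HLA-DPA1 and HLA-DPB1, and 6.85% of intervals, with 42.7% of the bases of chromosome 6, were at least as long. An 84.7 kb interval held HLA-DQA2 and HLA-DQB2, paralogs of the DQ genes, and 9.25% of intervals, with 48.5% of the bases, were at least as long. A position on chromosome 6 thus often falls in an interval of these lengths. Of the 3 intervals, that of the DR and DQ genes was the longest in CHM13 cells.

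**Figure D2:**
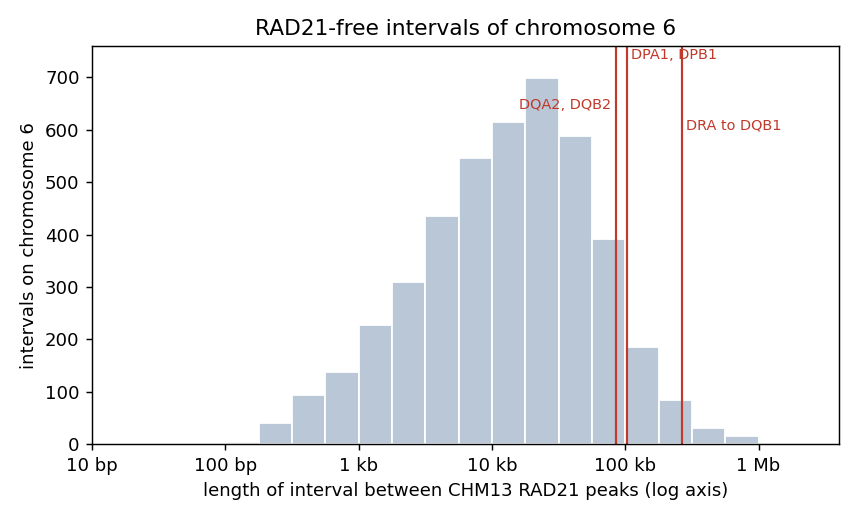
Number of intervals between CHM13 RAD21 peaks on chromosome 6 (y) by length (x, log axis). Red lines mark the 3 intervals that hold the 6 members or HLA-DQA2 and HLA-DQB2. The line of the interval from HLA-DRA to HLA-DQB1, at 267.7 kb, lies in the right tail, where 1.65% of intervals are at least as long.

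The members differed in their distance to the nearest peak. HLA-DRA, the alpha chain gene of HLA-DR, was the closest to a CHM13 RAD21 peak, at 7.31 kb, and 25.7% of 1051 protein-coding genes of chromosome 6 were at least as far from one. HLA-DRB1 was the farthest, at 110 kb, and only 2.47% of these genes were at least as far. HLA-DQA1 lay 53.2 kb, HLA-DPA1 37.6 kb, HLA-DQB1 31.9 kb and HLA-DPB1 28.6 kb from the nearest CHM13 RAD21 peak, with 5.80% to 9.99% of genes at least as far.

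Of the 1051 genes, 58.1% overlapped a CHM13 RAD21 peak, so the 6 members stood among the genes without one. The nearest RPE-1 RAD21 peak was 24.0 kb from HLA-DRA, 32.1 kb from HLA-DQB1 and 111 kb from HLA-DRB1. Of the 1051 genes, 44.6%, 37.9% and 12.5% were at least as far from one, and the median distance was 18.7 kb. In the RPE-1 SA1 list, the nearest peaks to HLA-DRA and HLA-DRB1 were 321 kb and 249 kb away, and those to HLA-DPA1 and HLA-DPB1 79.3 kb and 90.7 kb away. The shares of genes at least as far from an RPE-1 SA1 peak were 3.04%, 5.23%, 27.6% and 24.6%. HLA-DRB1 was the farthest of the 6 members in 5 of the 6 lists, and HLA-DRA was the farthest in the RPE-1 SA1 list.

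None of the 6 members had a peak of any list within 1 kb of an annotated transcript start, whereas 42.8% of 19970 protein-coding genes had a CHM13 RAD21 peak there and 11.1% an RPE-1 RAD21 peak. None had a peak of any list anywhere in the gene either. Among the 5222 protein-coding genes between the shortest member, HLA-DRA at 5.17 kb, and the longest, HLA-DQA1 at 18.9 kb, 47.4% had one. The DR, DQ and DP genes are neighbours and share intervals, so that the 6 zeros are not 6 separate observations.

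How the hg38 sequence of these intervals relates to other MHC haplotypes was examined because the alleles of the lines may differ from hg38. The measure was the share of 50-base words of hg38 chromosome 6 found exactly in the 7 alternate MHC sequences of the same build, 6 of which have undetermined bases. In the 1 alternate without gaps, 30.3% of words of the DR to DQ interval were found, against 81.2% in the DP interval and 71.5% in the interval of HLA-DQA2 and HLA-DQB2. Words found in none of the 7 alternates made up 57.7% of the DR to DQ interval and 0.164% of the DP interval. The longest interval without peaks was thus also the one where hg38 and the alternates shared the least sequence, and the DP interval was free of peaks in sequence that they largely share. By gene, 3.83% of words of HLA-DQB1, 6.96% of HLA-DQA1 and 11% of HLA-DRB1 were found in the gapless alternate, compared with 76.2% of HLA-DRA, 52.5% of HLA-DPB1 and 96.5% of HLA-DPA1.

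At the 20 sites the share found in the gapless alternate ran from 44% to 100% with a median of 96.5%. Words that occur more than once on chromosome 6 made up 5.63% of the DR to DQ interval, 3.06% of the DP interval and 3.40% of the locus. The part of sequence divergence from hg38 in the peak-free interval was not tested. None of the 6 lists had a peak on an alternate sequence of chromosome 6, and whether the authors' alignment included them is not given in the sources used here.

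Upstream of HLA-DRA, 3 sites stood between it and BTNL2, a butyrophilin-like gene. The site at chr6:32413261-32414024 held RAD21, SA1 and SA2 peaks of CHM13 cells, of 764, 580 and 641 bp, and an RPE-1 RAD21 peak of 377 bp. The site at chr6:32415254-32416015 likewise held all 3 CHM13 subunits, and RPE-1 RAD21 with 457 bp. The site at chr6:32431788-32432570, which was the closest to HLA-DRA, held all 3 subunits in CHM13 cells and none in RPE-1 cells. RPE-1 SA1 and SA2 were thus listed at none of the sites on this side.

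Between HLA-DQB1 and HLA-DPA1, 15 sites stood over 396 kb. The first, chr6:32700258-32701079, lay 31.9 kb from HLA-DQB1 and 40.3 kb from HLA-DQA2, and held all CHM13 subunits with RPE-1 RAD21. The next, chr6:32785735-32786476 and chr6:32796780-32797602, lay between HLA-DQB2 and HLA-DOB, and RPE-1 RAD21 was listed at the second of them. HLA-DOB and HLA-DOA encode HLA-DO, which restrains the peptide exchanger HLA-DM. Neither gene had a peak within 1 kb of a start, and their nearest CHM13 RAD21 peaks were 5.22 and 4.99 kb away.

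The antigen processing genes TAP1, TAP2, PSMB8 and PSMB9 serve class I presentation, with the TAP genes encoding the peptide transporter and the PSMB genes subunits of the immunoproteasome. The site chr6:32838361-32839183 covered the start of TAP2 and was listed in all 6 lists, with CHM13 widths of 823, 555 and 605 bp for RAD21, SA1 and SA2 and RPE-1 widths of 494, 334 and 366 bp. The RPE-1 RAD21 peak there was the widest of that list in the locus. A second site, chr6:32825685-32826451, lay in TAP2 and was listed in CHM13 cells only. The site chr6:32853864-32854498 overlapped a start of PSMB9, 48 bp from the end of TAP1 that holds its starts, and held RAD21 in both lines, of 635 and 408 bp, with no SA1 or SA2 peak in either. PSMB8 had no peak within 1 kb of a start.

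Between PSMB9 and HLA-DMB, the site chr6:32867901-32868835 was listed in all 6 lists, and chr6:32885492-32887122 held the widest CHM13 RAD21 peak of the locus, at 1631 bp, with SA1 and SA2 peaks of 684 and 737 bp and none in RPE-1 cells. A RAD21 peak of at least that width made up 6.16% of the CHM13 RAD21 peaks elsewhere on chromosome 6. The site chr6:32933323-32934140 lay 0.489 kb beyond HLA-DMB and held all CHM13 subunits with RPE-1 RAD21. HLA-DMA and HLA-DMB encode HLA-DM, which exchanges peptides on class II molecules.

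HLA-DMA and its neighbour BRD2, which encodes a bromodomain protein, had 5 sites close by. The site chr6:32947564-32948368 lay 0.245 kb beyond HLA-DMA and held all CHM13 subunits with RAD21 and SA1 of RPE-1 cells. Another 3 RAD21 sites without SA1 or SA2 followed in CHM13 cells. One, chr6:32953115-32953691, lay at a start of HLA-DMA and was also listed for RPE-1 RAD21. The other two, chr6:32967401-32967974 and chr6:32972242-32972793, lay near starts of HLA-DMA and BRD2, and were listed for CHM13 RAD21 alone. Beyond BRD2, chr6:32984228-32985412 was listed in all 6 lists.

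The DP genes stood between chr6:33014582-33015311, on the side of HLA-DOA, and chr6:33118344-33119086, in the pseudogene HLA-DPB2. The first held all CHM13 subunits with RPE-1 RAD21, and the second all CHM13 subunits and no RPE-1 peak. The last site, chr6:33123500-33124253, also in HLA-DPB2, held all CHM13 subunits with RAD21 and SA2 of RPE-1 cells. In all, 3 sites were listed in all 6 lists (15.0% of 20), and 5.34% of the 4569 sites on the rest of chromosome 6 were. No site of the locus was listed in RPE-1 cells alone, and only 27 of the 4569 elsewhere were.

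Of the 13 other listed genes of the locus, 5 had a peak of any list within 1 kb of a start, and 46.5% of all protein-coding genes did. TAP1, TAP2, PSMB9 and HLA-DMA had RAD21 in both lines and BRD2 had RAD21 in CHM13 cells alone. TAP2 alone of the 13 had SA1 and SA2 peaks at a start, in both lines. HLA-DMB, HLA-DOA, HLA-DOB, HLA-DQA2, HLA-DQB2, HLA-DRB5, PSMB8 and BTNL2 had no peak there. Over all protein-coding genes, a CHM13 SA1 peak lay near a start in 25.9% and a CHM13 SA2 peak in 23%. The RPE-1 lists gave 4.89% with SA1 and 3.53% with SA2. For SA1 and SA2, 1 of 13 lay below the CHM13 shares and above the RPE-1 shares, and these differences were not tested. The share with CHM13 RAD21, 5 of 13, was near the background of 42.8%, and that with RPE-1 RAD21, 4 of 13, stood beside 11.1%. As TAP1 and PSMB9 share 1 site, these are 3 sites for the 4 genes.

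Of 11 genes elsewhere that drive class II expression or process its antigens, 4 had a peak of any list within 1 kb of a start and none had an RPE-1 peak there. Of all protein-coding genes, 46.5% had a peak of any list there, so 4 of 11 was near the background. An RPE-1 RAD21 peak lay there in 11.1% of all protein-coding genes, an RPE-1 SA1 peak in 4.89% and an RPE-1 SA2 peak in 3.53%. These shares are low, so the lack of an RPE-1 peak among 11 genes says little. NFYB, a subunit of the promoter factor NF-Y, CREB1, a factor that binds class II promoters, and CTSS, the protease cathepsin S, had CHM13 RAD21, CREB1 and CTSS with SA2 as well, and RFXANK, a subunit of the promoter factor RFX, had CHM13 SA1 alone. CIITA, the coactivator of class II genes, had no peak within 1 kb of a start but held peaks within the gene. A peak of any list lay within 8 of the 11 genes and within 62.7% of all protein-coding genes. CD74, which encodes the invariant chain, had no CHM13 RAD21 peak closer than 22.8 kb.

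The density of peaks in the locus was compared with the rest of chromosome 6. In CHM13 cells the locus held 20 RAD21, 16 SA1 and 16 SA2 peaks, and in RPE-1 cells 13 RAD21, 4 SA1 and 4 SA2 peaks. CHM13 RAD21 stood at 26.7 peaks per Mb against 26.0 elsewhere, a ratio of 1.03 (exact conditional 95% interval 0.627 to 1.59). RPE-1 RAD21 stood at 17.3 against 4.57 peaks per Mb, a ratio of 3.79 (2.01 to 6.52), and its interval was the only one of the 6 that excluded 1. The ratios were 1.57 (0.897 to 2.56) for CHM13 SA1, 1.33 (0.760 to 2.17) for CHM13 SA2, 1.38 (0.375 to 3.55) for RPE-1 SA1 and 2.6 (0.703 to 6.71) for RPE-1 SA2. Intervals of this width could not separate these 5 ratios from 1, and they treat peaks as independent, which neighbouring peaks need not be.

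**Figure D3:**
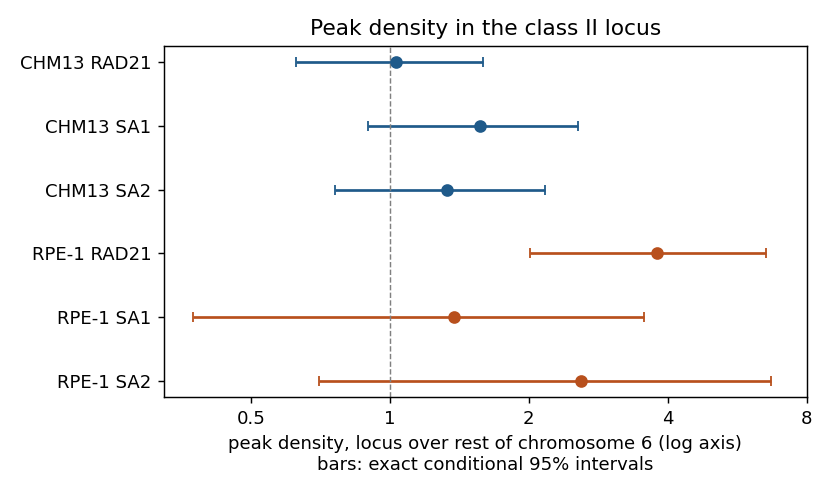
Ratio of peak density in the class II locus to that on the rest of chromosome 6 (x, log axis) for the 6 lists, with exact conditional 95% intervals; the dashed line marks 1. The RPE-1 RAD21 interval, 2.01 to 6.52, lies to the right of the line and the other 5 cross it.

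Of 223 consecutive windows of the same length on chromosome 6 with few undetermined bases, 6 (2.69%) had at least 13 RPE-1 RAD21 peaks, and 46.2% had at least 20 CHM13 RAD21 peaks. All 6 lay between 30.0 and 44.2 Mb. The nearest windows on either side of the locus, at 31.5 to 32.2 Mb and 33.7 to 34.5 Mb, held 15 and 12 RPE-1 RAD21 peaks. Against 5 Mb on either side, in place of the rest of chromosome 6, the RPE-1 RAD21 ratio was 1.34 (0.697 to 2.38), so the higher density was shared with the surrounding region and was not separated from it. The locus overlapped 21 protein-coding genes. In the 5 windows with at least as many, the RPE-1 RAD21 count ran from 4 to 15 with a median of 7.0 against 3 over all windows, and 2 of the 5 reached the count of the locus. The highest count of any window, 18, stood in a window with 16 coding genes. The part of gene density in the result was not tested. With only peaks at least as wide as the median of their list, the RPE-1 RAD21 ratio was 1.72 (0.353 to 5.06), and its interval no longer excluded 1.

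**Figure D4:**
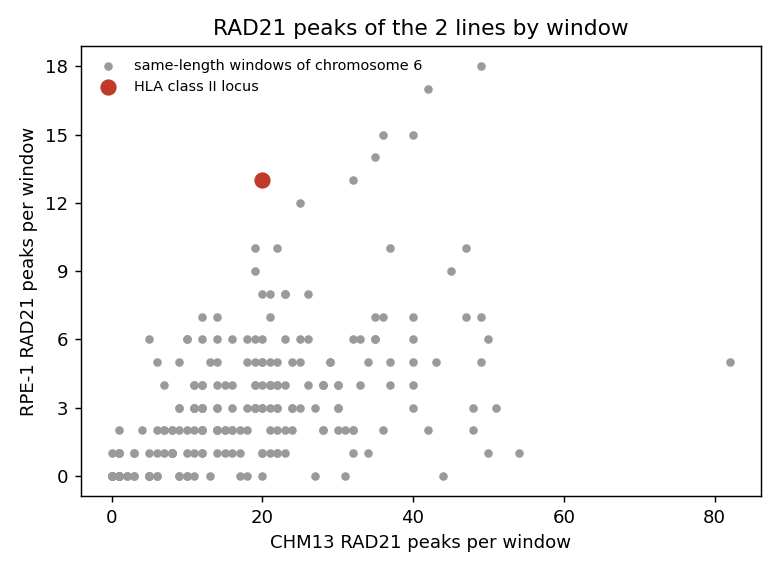
RPE-1 RAD21 peaks (y) against CHM13 RAD21 peaks (x) in 223 consecutive windows of chromosome 6 of the length of the class II locus (grey) and in the locus (red). The locus, at 20 and 13 peaks, lies above the windows with a like number of CHM13 peaks.

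The lines were compared by the odds of a peak lying in the locus rather than elsewhere on chromosome 6. For RAD21 the odds in RPE-1 cells were 3.69 times those in CHM13 cells (conditional exact 95% interval 1.68 to 7.84). For SA1 the odds ratio was 0.878 (0.213 to 2.73) and for SA2 1.95 (0.472 to 6.09), and with 4 RPE-1 peaks each neither could be separated from 1. For every 100 CHM13 RAD21 peaks there were 65.0 RPE-1 RAD21 peaks in the locus and 17.6 elsewhere. With only peaks at least as wide as the median of their list, the RAD21 odds ratio was 1.29 (0.234 to 4.71), and against 5 Mb on either side of the locus it was 1.86 (0.824 to 4.05).

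Peak by peak, 13 of 20 CHM13 RAD21 peaks of the locus overlapped an RPE-1 RAD21 peak (65.0%, Wilson 95% interval 43.3 to 81.9), compared with 16.8% on the rest of chromosome 6. In none of the 168 windows with at least 10 CHM13 RAD21 peaks was the share as high, and the highest was 60.0% and the median 15.2%. Every one of the 13 RPE-1 RAD21 peaks lay on a CHM13 RAD21 peak, as did 96.5% elsewhere. The RPE-1 RAD21 density ratio, the RAD21 odds ratio, the share of sites listed in both lines and this RAD21 share thus rest on the same 13 peaks. They are not separate observations. The SA1 share was 25% (4 of 16, 10.2 to 49.5) beside 27.4% elsewhere, and the SA2 share 25% (4 of 16, 10.2 to 49.5) beside 12.7%. Both SA intervals included the share elsewhere. With an overlap of at least 50% of both peaks, the RAD21 share was 40.0% (21.9 to 61.3) beside 9.57%. Within 5 Mb on either side of the locus, 35% of 369 CHM13 RAD21 peaks overlapped an RPE-1 RAD21 peak (30.3 to 40.0), and with the 50% rule 24.9% did (20.8 to 29.6), which lies within the interval of the locus.

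**Figure D5:**
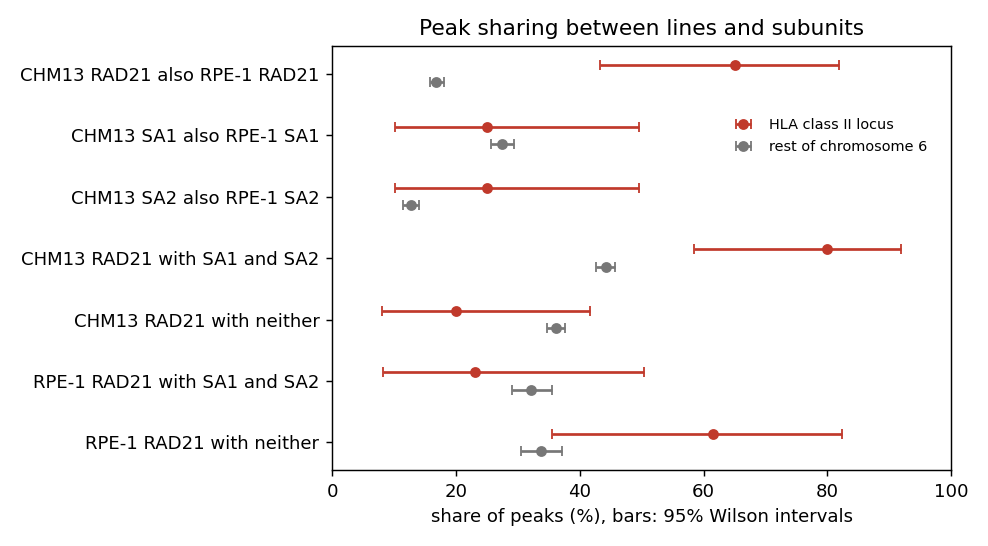
Share of peaks (x, %) that overlap a peak of the other line or subunit, in the class II locus (red) and on the rest of chromosome 6 (grey), with Wilson 95% intervals. The red and grey intervals are apart for CHM13 RAD21 peaks shared with RPE-1 (65.0% and 16.8%) and for CHM13 RAD21 peaks with SA1 and SA2 (80.0% and 44.2%).

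The subunits were compared within a line. In CHM13 cells, 16 of 20 RAD21 peaks overlapped both SA1 and SA2 (80.0%, 58.4 to 91.9), compared with 44.2% on the rest of chromosome 6. No RAD21 peak of the locus overlapped only 1 of them. Elsewhere 49.3% overlapped SA1 and 58.8% SA2, both above the 44.2% with both, so some peaks there overlapped only 1. The remaining 4 overlapped neither (20.0%, 8.07 to 41.6), against 36.1% elsewhere. In RPE-1 cells, 3 of 13 RAD21 peaks overlapped both (23.1%, 8.18 to 50.3), beside 32.2% elsewhere. SA1 was overlapped by 4 of the 13 (30.8%, 12.7 to 57.6) and by 61.1% of RPE-1 RAD21 peaks elsewhere, and 8 overlapped neither (61.5%, 35.5 to 82.3), where 33.7% elsewhere overlapped neither. All 8 SA peaks of RPE-1 cells and all 32 of CHM13 cells in the locus lay on a RAD21 peak of their line. On the rest of chromosome 6, 96.0% of SA1 and 97.5% of SA2 peaks did in CHM13 cells. In RPE-1 cells these shares were 72.4% and 83.0%, within the locus intervals of 51.0 to 100.

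The 4 CHM13 RAD21 peaks without SA1 or SA2 were those near the starts of PSMB9 and TAP1, of HLA-DMA at 2 places, and of BRD2. Of the 5 CHM13 RAD21 peaks of the locus within 1 kb of a start of a protein-coding gene, 4 overlapped neither SA1 nor SA2, and of the 15 farther away 0 did. On the rest of chromosome 6 these shares were 38.7% of 522 peaks and 35.8% of 3877 peaks. Among CHM13 RAD21 peaks without SA1 or SA2, 2 of 4 in the locus and 1.01% of 1589 elsewhere overlapped an RPE-1 RAD21 peak. Among those with both, 11 of 16 did in the locus and 35.6% of 1944 elsewhere.

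Widths of the peaks were close to those elsewhere. The median CHM13 RAD21 peak was 759 bp in the locus and 741 bp on the rest of chromosome 6, and the median RPE-1 RAD21 peak 411 and 444 bp. The CHM13 RAD21 peaks ranged from 552 to 1631 bp and those of RPE-1 cells from 276 to 494 bp.

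The CTCF consensus was found at 9 of 16 sites with SA1 and SA2, and at 1 of the 4 sites with RAD21 alone, that at HLA-DMA. On the rest of chromosome 6, 34.8% of sites with all 3 CHM13 subunits held it and 5.66% of sites with CHM13 RAD21 and no SA peak. The sites flanking the DR to DQ interval, nearest HLA-DRA and nearest HLA-DQB1, had 3 and 2 mismatches at best, so neither is among the 10.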

How the data were processed

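The authors used bwa mem for alignment, samtools for filtering of the alignments, macs2 for peaks of each library, and reduce of GenomicRanges to merge replicates, and they kept loci seen in at least 2 of them. These steps are stated for CHM13 v1.0, and the alignment to hg38 is not described. The deposited lists give the start and end of each peak in bp, and no height, p-value or depth. CHM13 and RPE-1 libraries numbered 12 and 8, input included, and depth was not used here.

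From the 6 hg38 lists, peaks were assigned by their centres, and densities are per Mb without N. Ratios of densities and odds carry exact conditional 95% intervals, and shares carry Wilson intervals. All cover counting error only, and no p-value was computed. Calculations used Python 3.11.15, numpy 2.4.6 and scipy 1.17.1, with the interval, overlap and motif steps tested on simulated data. Genes came from GENCODE 44, and sequences from hg38. The members and gene lists were chosen with earlier results of these data known. The genes and sites named were the members, the listed genes, and all sites between or flanking them. The background of genes of like length, the comparison with alternate MHC sequences and that with 5 Mb on either side of the locus were chosen after seeing the data. The lists on CHM13 v1.0, and the inputs, were not used here. Alternatives concerned the flank, the assignment and width of peaks, the rest, overlap and joining rules, start windows and mismatches. One sequence match is not reported here.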

Additional observations from a re-analysis of the deposited data

Results flagged for a closer look

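The odds of a RAD21 peak lying in the class II locus differed between the lines by the exact interval of their ratio, 3.69 in RPE-1 over CHM13 cells (95% interval 1.68 to 7.84). Against 5 Mb on either side of the locus, in place of the rest of chromosome 6, the ratio was 1.86 (0.824 to 4.05). The RAD21 antibody, the sonication, the number of libraries, the sequencing depth and the added Drosophila chromatin differed between the lines as well. None of these can be told apart from the line. No other comparison between lines had an interval that excluded 1, and with 1 merged list per line and subunit no replicate could be examined for values far from the others.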

How the results depend on the processing

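Of the first 109 alternatives tried, 101 were counted as unchanged. For a ratio with an interval this meant that the interval still excluded 1, or still included it. Some such ratios crossed 1, as the CHM13 RAD21 density ratio did without the flank, at 0.888 beside 1.03. For other values it meant staying within the interval or within 1.5 times the count. The RPE-1 RAD21 density ratio ran from 1.34 to 4.11 and the RAD21 odds ratio from 1.29 to 3.96 over all alternatives. With only peaks at least as wide as the median of their list they were 1.72 and 1.29, and against 5 Mb on either side of the locus, an alternative chosen after seeing the data, 1.34 and 1.86. The intervals of these 4 values included 1. With an overlap of at least 50% of both peaks, 40.0% of CHM13 RAD21 peaks were shared with RPE-1 cells, beside 9.57% elsewhere. Of the 13 other listed genes, 8 had a peak within 5 kb of a start and 3 within 1 kb of the 5′ end of the gene, and of the 11 elsewhere 8 had one within 5 kb. Over all protein-coding genes these shares were 60.4% within 5 kb and 37% at the 5′ end. The CTCF consensus was found at 10.0% of sites with no mismatch and at 90.0% with at most 2, beside 4.07% and 43.1% elsewhere. The members with a peak near a start still numbered 0 with a 5 kb window. The other alternatives for the members only narrow the window or drop starts. Those for the stretch between HLA-DRB1 and HLA-DQA1 only merge or remove peaks. A count of 0 could thus not change under either. No paired analysis was possible because the lists merge the replicates of a line, and for the same reason no replicate could be left out.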
